A study of Mus musculus with 8 samples.

Results

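The small nucleolar and small nuclear RNA rows of a mouse muscle count table are described here. The rule that picks the members uses gene symbols only, though it was chosen with earlier results of these data known. The members are the rows whose gene symbol begins with Snora, Snord, Scarna or Rnu followed by a digit. They number 124 of 23336 rows, in 4 classes: 75 box C/D rows, 36 box H/ACA rows, 9 scaRNA rows (small Cajal body RNAs) and 4 snRNA rows (spliceosomal and related small nuclear RNAs). By the labels, the RNA came from skeletal muscle of newborn female C57BL/6 mice at postnatal day 2. One group of 4 libraries carried the ΔDMR1-U2 deletion, at the locus of the growth factor gene Igf2, and the other group of 4 was wild type. In each group the libraries are named 1A, 1B, 2 and 3. The labels do not say which muscle was taken, whether animals were pooled, whether 1A and 1B are related, or from which parent the deletion came. P-values therefore measure the spread between these libraries, which may be technical in part.

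Small nucleolar RNAs guide the chemical modification of other RNAs by base pairing. Box C/D RNAs direct 2′-O-methylation with the methyltransferase fibrillarin, box H/ACA RNAs direct the conversion of uridine to pseudouridine with dyskerin, and both kinds mostly target ribosomal RNA. The scaRNAs do the same for spliceosomal snRNAs in Cajal bodies. In mammals most of these RNAs are cut out of the introns of host genes, many of which encode ribosomal proteins or translation factors, while snRNAs and a few guide RNAs have promoters of their own. The libraries were made from total RNA depleted of ribosomal RNA, without selection for poly(A) tails, so the mature small RNAs, which have no tail, were not removed at that step.

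The defining boxes can be read in most of the sequences shown, which come from the GENCODE transcripts of GRCm38 (the assembly also called mm10). The first set shows the 4 box C/D rows with the most counts, and the capitals mark box C (TGATGA, within the first 20 bases) and box D (CTGA, within the last 15 bases). In Snord22 these letters of box C are not in that window.
Snord17, chr2:144265979-144266216, minus strand: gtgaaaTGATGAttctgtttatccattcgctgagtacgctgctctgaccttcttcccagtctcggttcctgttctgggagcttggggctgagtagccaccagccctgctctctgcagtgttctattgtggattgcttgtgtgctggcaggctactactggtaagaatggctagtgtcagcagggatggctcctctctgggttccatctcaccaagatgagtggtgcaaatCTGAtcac
Snord15b, chr7:99479563-99479707, minus strand: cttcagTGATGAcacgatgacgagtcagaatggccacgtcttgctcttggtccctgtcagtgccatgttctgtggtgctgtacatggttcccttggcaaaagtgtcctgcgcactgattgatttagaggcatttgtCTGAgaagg
Snord15a, chr7:99482785-99482932, minus strand: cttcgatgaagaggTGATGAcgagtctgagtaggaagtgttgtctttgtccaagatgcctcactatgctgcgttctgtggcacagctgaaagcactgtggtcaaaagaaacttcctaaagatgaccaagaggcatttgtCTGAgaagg
Snord22, chr19:8725866-8725991, plus strand: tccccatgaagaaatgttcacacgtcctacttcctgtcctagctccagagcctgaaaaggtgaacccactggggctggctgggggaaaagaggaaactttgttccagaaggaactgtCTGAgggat
Snord15b and Snord15a lie in the same host gene, Rps3, and end in the same stretch that holds box D. Snord17 and both Snord15 rows are methylation guides of the large ribosomal subunit's RNA, and Snord22 (U22) is needed for the maturation of the small subunit's RNA.

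The next pair shows why the row named Rnu73b was counted as box C/D. It lies in Rps3a1 (listed as Rps3a in the table), beside Snord73a, and carries the same boxes.
Rnu73b, chr3:86140618-86140688, minus strand: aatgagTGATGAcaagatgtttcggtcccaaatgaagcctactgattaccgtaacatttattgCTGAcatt
Snord73a, chr3:86138791-86138858, minus strand: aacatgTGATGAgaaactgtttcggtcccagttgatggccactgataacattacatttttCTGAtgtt

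The third set shows 4 box H/ACA rows on which the comparison below turns, Snora23 and Snora81 among the most abundant and Snora61 and Snora2b among the rows with lower counts in ΔDMR1-U2. The capitals mark the ACA box, the letters ACA placed 3 bases before the 3′ end, where a row has it there, which Snora81 does not.
Snora23, chr7:110046364-110046547, plus strand: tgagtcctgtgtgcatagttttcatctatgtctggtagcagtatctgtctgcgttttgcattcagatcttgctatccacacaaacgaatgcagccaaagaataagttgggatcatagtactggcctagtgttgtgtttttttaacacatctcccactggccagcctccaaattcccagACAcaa
Snora81, chr16:23110756-23110933, plus strand: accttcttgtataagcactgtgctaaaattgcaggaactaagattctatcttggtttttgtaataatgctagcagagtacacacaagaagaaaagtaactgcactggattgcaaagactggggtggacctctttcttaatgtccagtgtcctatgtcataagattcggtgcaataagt
Snora61, chr4:132310240-132310369, plus strand: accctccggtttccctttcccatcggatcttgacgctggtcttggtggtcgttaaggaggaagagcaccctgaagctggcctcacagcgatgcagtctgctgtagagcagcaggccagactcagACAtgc
Snora2b, chr15:98526346-98526482, minus strand: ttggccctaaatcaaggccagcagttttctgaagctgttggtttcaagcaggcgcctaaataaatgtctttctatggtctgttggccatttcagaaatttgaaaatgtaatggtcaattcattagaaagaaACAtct
Scarna9, the shortest scaRNA row, is a methylation guide of the U2 snRNA and carries both box C and box D, in capitals.
Scarna9, chr9:15326264-15326333, minus strand: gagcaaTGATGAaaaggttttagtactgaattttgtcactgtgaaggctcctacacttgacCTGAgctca

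The classes are defined by these boxes, so their split by box is a description, and in these windows it was not complete. Sequences were read on each transcript's own strand. The windows of box C and box D do not overlap in any member, while the ACA position lies inside the box D window. Box C was present in 47 of 74 box C/D members with an annotated sequence (63.5%) and box D in 67 of 74 (90.5%). The ACA box was present in 0 of them. Of the 36 box H/ACA members, 30 had the ACA box (83.3%), 0 had box C and 2 had box D. Over all 1507 annotated snoRNA transcripts the shares were 21.7% for box C, 31.4% for box D and 18.3% for the ACA box. Of the 9 scaRNA rows, 4 had both box C and box D and 2 had the ACA box.

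The data behind the rows were thin next to the rest of the libraries, which held 16084413 to 26913636 counts each. The members took 7557 to 14155 counts per library, or 0.0470% to 0.0631% of the total. Igf2as, the antisense transcript of the deleted locus, had 5.55 to 6.18 CPM (counts rescaled to a common library size) in ΔDMR1-U2, against 54.4 to 72.2 CPM in wild type. All 10 skeletal muscle markers were detected, with a summed level of 172786 to 194344 CPM in ΔDMR1-U2, against 189317 to 223007 CPM in wild type. In all, 2 libraries stood apart. ΔDMR1-U2 1A, labelled female, had 49 counts of Xist against 21122 to 42121 in the other libraries. Its label as female is therefore in doubt, and sex may be mixed within that group, which was not tested. ΔDMR1-U2 1B had 618.8 CPM of 8 white adipocyte markers against 183.6 to 269.4 CPM elsewhere. Values of the named members without both are given after the classes.

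Most member rows were barely sampled. Of the 124 rows, 74 reached at least 10 counts in 4 libraries, and these are the rows described below: 37 of 75 box C/D rows (49.3%), 29 of 36 box H/ACA rows (80.6%), 6 of 9 scaRNA rows and 2 of 4 snRNA rows. At the edge of that threshold, 3 rows had 10 counts in exactly 4 libraries (Snord47, Snord52 and Snord55, 64 to 86 counts in all) and 2 rows in 3 libraries (Snora69 and Snord58b, 59 to 71 counts). A further 36 rows under the threshold held 2 to 71 counts over the 8 libraries together, the last 2 named included.

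Another 14 rows had 0 counts in every library. They were 10 box C/D rows, 3 box H/ACA rows (Snora24, Snora26 and Snora35) and Rnu7, the U7 RNA that processes histone mRNA ends. The box C/D rows at 0 included Snord116, Snord116l1 and Snord116l2, of the imprinted cluster known for its expression in neurons, and Snord14a, Snord14c and Snord14d. A count of 0 allows 3 counts, which is 0.112 to 0.195 CPM depending on the library. How the authors' counting treated reads that fit several places is not stated in the labels or the table. Near-identical annotated copies, at 95% identity over 90% of the length, existed for 21 of the 123 members found in the annotation. Snord116l1 and Snord116l2 had 69 each, and Rnu6, the U6 RNA with 2 counts in all, had 202. For such rows a low count and a discarded read cannot be told apart. Rnu7, Snora24 and Snord14a had 0 such copies but overlap an exon of a host gene. How reads shared with a host exon were counted is not stated either.

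A few rows, most of them long, carried the bulk of the reads. The 12 rows with a mean of at least 100 counts per library, a threshold chosen after the values were seen, held 84.7% of the members' 88618 counts. Scarna10, the U85 RNA that carries both kinds of guide for the U5 snRNA, had 21543 counts over the 8 libraries, which is 24.3% of all member counts. Snora74a (U19) had 13436, or 60.5% of all box H/ACA counts. Snord17 had 10474, or 42.4% of all box C/D counts. The other 9 were Scarna2, Scarna13, Scarna6, Snord15b, Snord22, Scarna9, Snora81, Snora23 and Snord15a.

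The rows with the most counts were mostly long, but counts did not rise steadily with annotated length. The 63 box C/D rows of up to 100 bases had a median of 66 counts (up to 75 bases, 31 rows) or 51 counts (above 75 bases, 32 rows). The 6 box C/D rows of 108 to 111 bases had a median of 70 counts. The 4 box C/D rows of 126 to 148 bases had a median of 2090.5 counts (204 to 3472), and the single longer one, Snord17 with 238 bases, had the most. In box H/ACA, 32 rows of 127 to 149 bases had a median of 170 counts, and the 3 longer rows (Snora74a, Snora81 and Snora23) had 1344 to 13436. All 9 members above 150 bases reached the threshold for description. The exception among short rows was Scarna9, with 1938 counts at 70 bases. The 3 scaRNA rows of 131 to 140 bases had only 13 to 21 counts.

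**Figure D1:**
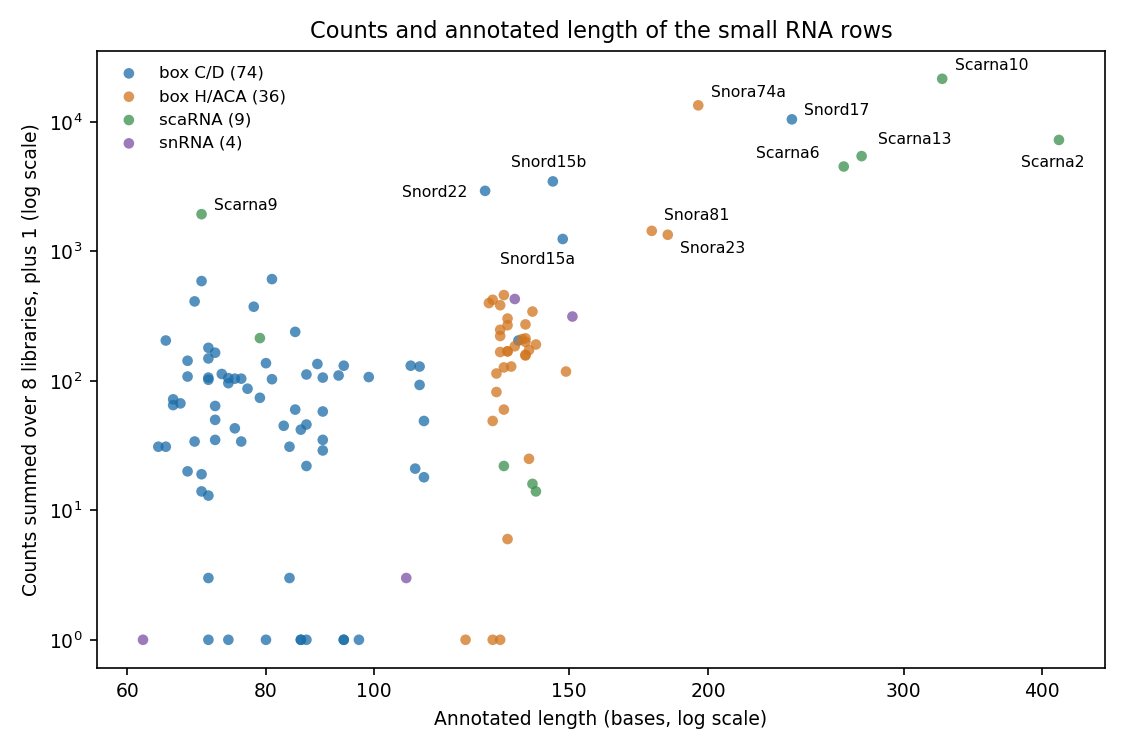
Total counts over the 8 libraries plus 1 (log scale) against GENCODE length in bases (log scale), 1 point per member row, coloured by class. The 9 rows longer than 150 bases hold 313 to 21543 counts, while the box C/D rows of up to 100 bases hold 610 at most.

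The order of levels per kilobase was different. In CPM per kilobase of GENCODE length, Snora74a was at 414, Scarna10 at 398, Snord17 at 266, Scarna9 at 163, Snord15b at 144 and Snord22 at 139. The long scaRNAs Scarna13, Scarna2 and Scarna6 were at 120, 107 and 103. The median over box H/ACA rows of 127 to 149 bases was 7.602 CPM per kilobase, and over box C/D rows above 75 and up to 100 bases 3.40. Spearman's rho between length and total counts was 0.08 over 74 box C/D rows, 0.33 over 36 box H/ACA rows, 0.65 over 9 scaRNA rows and 0.42 over all 123 rows. These values describe rows that share the same 8 libraries and have no test. Lengths are uncertain: RefSeq and GENCODE differ by more than 10 bases for 66 members, and Scarna10 has 71 bases in the first and 325 in the second. With RefSeq lengths the rho of the scaRNA rows was -0.15.

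Between ΔDMR1-U2 and wild type, no member passed the test. Of the 15241 genes tested with edgeR's quasi-likelihood test, 172 had an adjusted p under 0.05, which is 1.13%, and among the 71 members tested the count was 0. DESeq2 called 1 member, Snora74a, where it called 6.44% of all genes. In the authors' deposited table, 0 of the 110 members with an adjusted p were under 0.05, where 0.887% of all genes were. At an edgeR p under 0.05 before adjustment there were 8 of 71 members (11.3%) against 21.3% of all genes. Of these, 6 were higher in ΔDMR1-U2 (Snora74a, Snora81, Snora23, Snord17, Snord15b and Scarna13), where 10.4% of all genes were higher. The other 2 were lower (Snora61 and Snora2b), where 10.9% of all genes were lower. CPM ranges of the groups did not overlap for 4 of 71 members (Snora74a, Snora61, Snora19 and Snora2b), against 12.8% of all genes. The members' shares at an unadjusted p under 0.05, in either direction, and without overlap were thus below those of all genes. The comparison is not matched for counts, and the median standard error was 0.25 over members, against 0.11 over all genes. Of the 12 members with a mean of at least 100 counts, 6 had an unadjusted edgeR p under 0.05, and of the 59 others 2. That threshold was set after the values were seen. With 71 rows, a background near 1% amounts to about 1 row.

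**Figure D2:**
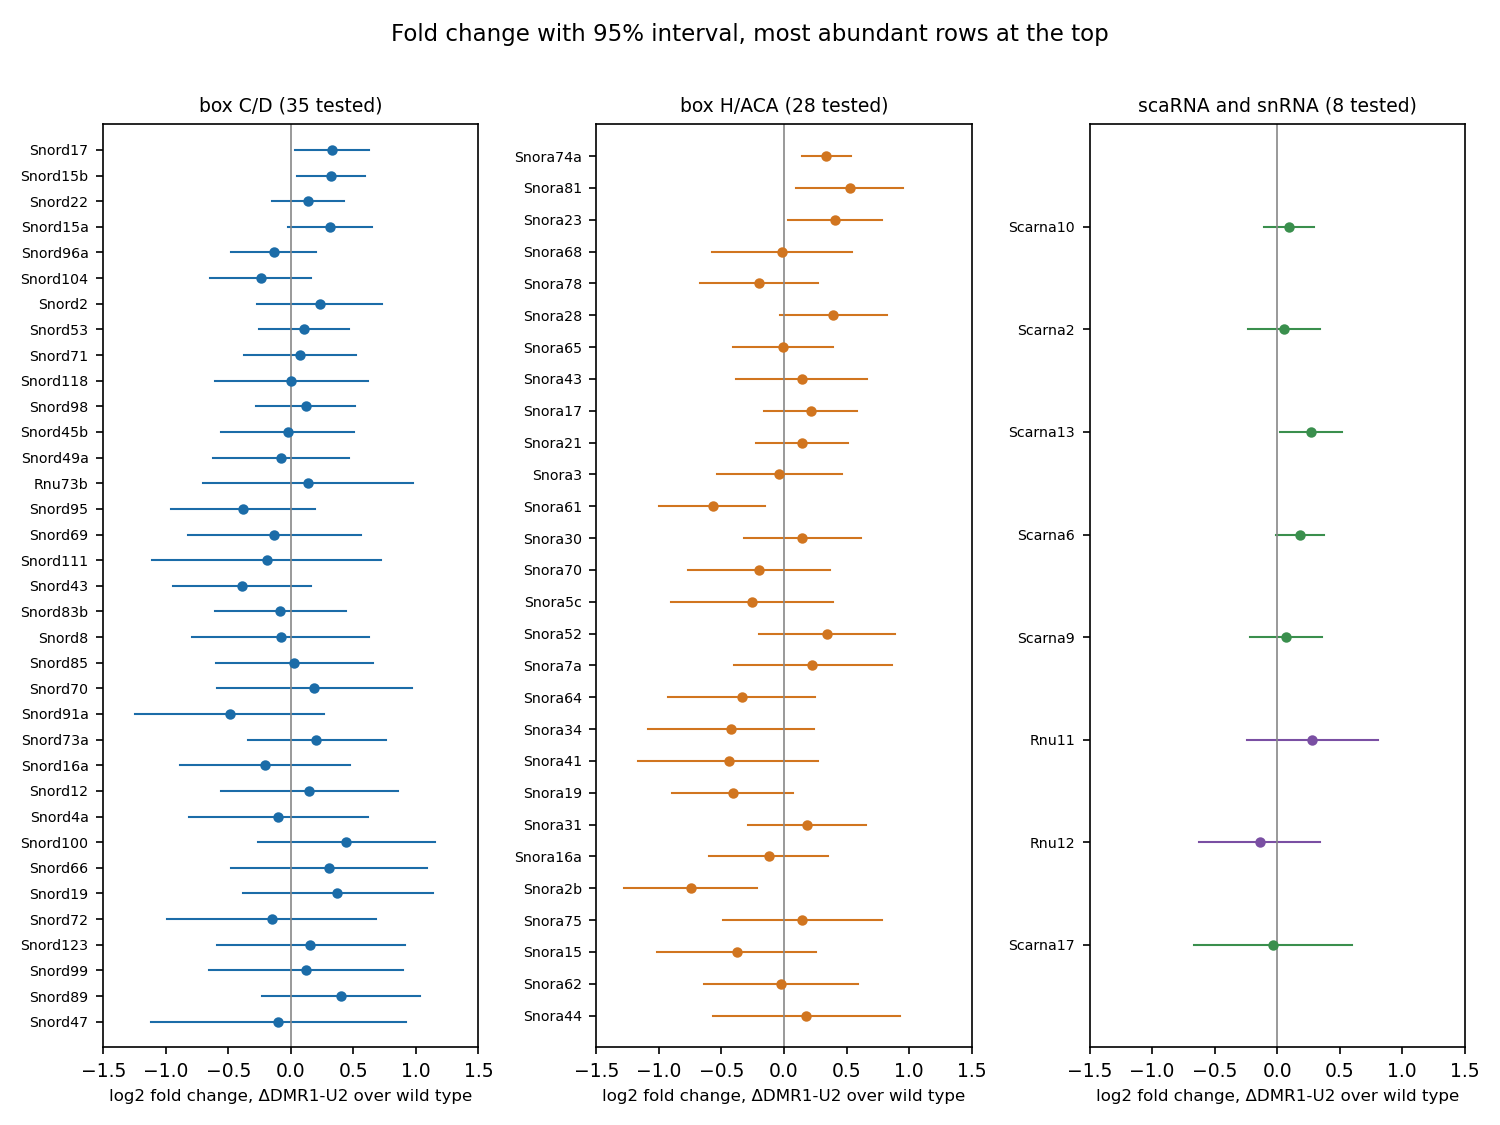
Log2 fold change of ΔDMR1-U2 over wild type with its 95% interval for the 71 tested members, in 3 panels by class and ordered by mean counts. Intervals narrow towards the top, and the uppermost rows of each panel lie to the right of 0.

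Box C/D rows, the methylation guides, had a median log2 fold change of 0.07 over 35 tested rows, with 20 above 0 and 15 below. Over all genes tested the median was -0.001. Single rows ranged from -0.48 (Snord91a) to 0.44 (Snord100), with standard errors of 0.12 to 0.46 that were mostly as large as the differences. Unadjusted p was under 0.05 for 2 of them.

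Snord17 stood at 82.8, 54.2, 84.9 and 60.1 CPM in the ΔDMR1-U2 group, for libraries 1A, 1B, 2 and 3 in that order, and at 52.4, 58.7, 59.2 and 54.0 CPM in the wild-type libraries, in the same order. Libraries 1A and 2 of ΔDMR1-U2 lay far above the wild-type range, library 3 lay just above it and 1B within it. The means were 70.5 ± 15.6 and 56.1 ± 3.40 CPM (SD, n = 4 each), and the log2 fold change was 0.33 ± 0.13 (SE), with an adjusted p of 0.199 by edgeR.

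Snord15b and Snord15a, both within Rps3, differed in level but had like fold changes. Snord15b was at 20.8, 21.8, 28.6 and 21.8 CPM in ΔDMR1-U2 and at 15.8, 17.5, 21.8 and 19.2 CPM in wild type. Only wild-type library 2 reached into the ΔDMR1-U2 range. Its log2 fold change was 0.32 ± 0.12, with an edgeR adjusted p of 0.180, and it was 0.21 without ΔDMR1-U2 library 2.

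Snord15a was at 9.24, 6.51, 10.3 and 7.35 CPM in ΔDMR1-U2 and at 5.90, 6.58, 7.70 and 6.50 CPM in wild type. As for Snord17, libraries 1A and 2 of ΔDMR1-U2 were the high ones and the ranges overlapped. The log2 fold change was 0.31 ± 0.15, with an edgeR adjusted p of 0.262, and it was 0.20 without ΔDMR1-U2 library 2.

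Snord22, carried by the non-coding host Snhg1, was at 18.9, 14.6, 21.7 and 18.2 CPM in ΔDMR1-U2 and at 13.3, 18.1, 17.99 and 16.99 CPM in wild type. ΔDMR1-U2 libraries 1A, 2 and 3 lay above every wild-type library and 1B lay within their range. The 95% interval of the log2 fold change ran from -0.15 to 0.43, and its value of 0.14 became 0.05 without ΔDMR1-U2 library 2 or without wild-type 1A, and 0.23 without ΔDMR1-U2 1B. Snord96a, which lies in Rack1 and guides methylation of the 5.8S ribosomal RNA, was at 2.93 to 3.998 CPM in ΔDMR1-U2, against 3.44 to 4.59 CPM in wild type, with an interval of -0.48 to 0.20.

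The 3 box C/D rows with the smallest p on the lower side were Snord43, Snord95 and Snord91a. Snord43 was at 0.660 ± 0.0848 CPM in ΔDMR1-U2, against 0.869 ± 0.196 CPM in wild type, a log2 fold change of -0.39 ± 0.25. Snord95 was at 0.735 ± 0.195 against 0.963 ± 0.184 CPM, and Snord91a at 0.533 ± 0.220 against 0.733 ± 0.221 CPM. These 3 had 109 to 142 counts over all libraries, their ranges overlapped, and their edgeR adjusted p lay between 0.385 and 0.433. Snord118, the U8 RNA needed for large-subunit processing, had a log2 fold change of 0.00 ± 0.28. Snord64, in the same imprinted region as Snord116, had 66 counts over all libraries and did not enter the test.

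Box H/ACA rows, the pseudouridylation guides, had a median log2 fold change of -0.01 over 28 tested rows, with 13 above 0 and 15 below. Their range was wider, from -0.74 (Snora2b) to 0.53 (Snora81). Unadjusted p was under 0.05 for 3 higher and 2 lower rows.

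Snora74a had the smallest p of all members. It stood at 87.2, 89.5, 101 and 84.9 CPM in ΔDMR1-U2 and at 63.9, 79.0, 64.8 and 78.8 CPM in wild type, so every ΔDMR1-U2 library lay above every wild-type library. The means were 90.7 ± 7.22 and 71.6 ± 8.42 CPM (SD, n = 4 each), a 1.27-fold difference. The log2 fold change was 0.34 ± 0.09, with a 95% interval of 0.14 to 0.54 and an edgeR adjusted p of 0.0845. DESeq2 gave an adjusted p of 0.0197, and over the 15 alternative fits the adjusted p ran from 0.0197 to 0.229. In the authors' deposited table the adjusted p was 0.190.

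Snora81, in the translation factor gene Eif4a2, was at 14.3, 9.12, 10.7 and 7.10 CPM in ΔDMR1-U2 and at 6.29, 8.65, 6.96 and 6.62 CPM in wild type. Library 1A of ΔDMR1-U2 was the highest, and library 3 lay within the wild-type range. Its log2 fold change was 0.53 ± 0.19, with an edgeR adjusted p of 0.162. It was 0.33 without ΔDMR1-U2 library 1A.

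Snora23, in an intron of the importin gene Ipo7, was at 10.3, 7.63, 12.3 and 7.15 CPM in ΔDMR1-U2 and at 6.42, 8.04, 6.62 and 6.92 CPM in wild type. Here too libraries 1A and 2 were high and 1B and 3 lay within the wild-type range. The log2 fold change of Snora23 was 0.41 ± 0.17, with an edgeR adjusted p of 0.204, and it was 0.25 without ΔDMR1-U2 library 2.

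The next most abundant pair gave no difference larger than the spread. Snora68 was at 2.76 ± 1.01 CPM in ΔDMR1-U2, against 2.78 ± 0.512 CPM in wild type. Snora78, in Snhg9, was at 2.34 ± 0.756 and 2.69 ± 0.0973 CPM. The 95% intervals of their log2 fold changes were -0.58 to 0.55 and -0.67 to 0.27.

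On the lower side, Snora2b stood at 0.511, 0.640, 0.955 and 0.641 CPM in ΔDMR1-U2 and at 1.04, 0.995, 1.23 and 1.27 CPM in wild type. Every ΔDMR1-U2 library lay below every wild-type library, on 156 counts in all. The log2 fold change was -0.74 ± 0.24, with an edgeR adjusted p of 0.125.

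Snora61 stood at 0.919, 1.23, 1.31 and 1.18 CPM in ΔDMR1-U2 and at 1.43, 1.95, 1.87 and 1.57 CPM in wild type, again without overlap. Its log2 fold change was -0.57 ± 0.19, with an edgeR adjusted p of 0.136. Snora19, in Eif3a, was at 0.850 ± 0.174 against 1.13 ± 0.101 CPM, and its 95% interval of -0.89 to 0.07 included 0 although the groups did not overlap.

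Among the scaRNAs, which guide the modification of snRNAs, 5 of the 6 tested rows lay above 0, with a median log2 fold change of 0.08. Scarna10, the most abundant, stood at 135, 118, 144 and 137 CPM in ΔDMR1-U2 and at 123, 145, 110 and 121 CPM in wild type. The highest library was a wild-type one, and the 95% interval of the log2 fold change, -0.10 to 0.30, bounds the difference on both sides.

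Scarna13 (U93, a pseudouridylation guide hosted by Snhg10) was at 37.3, 42.2, 37.2 and 27.6 CPM in ΔDMR1-U2 and at 30.8, 31.0, 29.5 and 28.3 CPM in wild type. All but library 3 of ΔDMR1-U2 lay above wild type, and library 3 lay below it. Its log2 fold change was 0.27 ± 0.11, with an edgeR adjusted p of 0.208.

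Scarna6 (U88, in Atg16l1) was at 30.2, 25.5, 32.6 and 28.0 CPM in ΔDMR1-U2 and at 26.9, 26.4, 25.2 and 23.8 CPM in wild type. Only library 1B of ΔDMR1-U2 lay within the wild-type range, and the log2 fold change was 0.18 ± 0.09. Scarna2 and Scarna9, both methylation guides of U2, had intervals of -0.23 to 0.34 and -0.22 to 0.36.

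Of the snRNA rows only Rnu11 and Rnu12, the U11 and U12 RNAs of the minor spliceosome, had counts to compare. Rnu11 was at 3.17, 2.77, 3.58 and 1.97 CPM in ΔDMR1-U2 and at 2.98, 2.83, 2.13 and 1.57 CPM in wild type. The interval of its log2 fold change ran from -0.25 to 0.80. Rnu12 was at 1.76 ± 0.226 CPM in ΔDMR1-U2, against 1.93 ± 0.540 CPM in wild type, with an interval of -0.62 to 0.34. The groups overlapped for both. Without single libraries the log2 fold change ran from 0.12 to 0.43 for Rnu11 and from -0.27 to 0.08 for Rnu12, which turned above 0 without wild-type 1B. Rnu11 overlaps an exon of Gm28872 on the opposite strand, and nothing used here states whether the counting took strand into account.

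Without ΔDMR1-U2 libraries 1A and 1B, which stood apart by Xist and adipocyte markers, the log2 fold change turned sign for 2 named members. These were Snora78, from -0.20 to 0.15, and Snord96a, from -0.14 to 0.02. Snora81 went from 0.53 to 0.31, Scarna13 from 0.27 to 0.11 and Snord95 from -0.38 to -0.18, all nearer to 0. Snord22 went from 0.14 to 0.25, Scarna10 from 0.10 to 0.17 and Rnu12 from -0.14 to -0.27, further from it. Snora74a stood at 0.37, Snord17 at 0.36, Snora2b at -0.53 and Snora61 at -0.47.

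**Figure D3:**
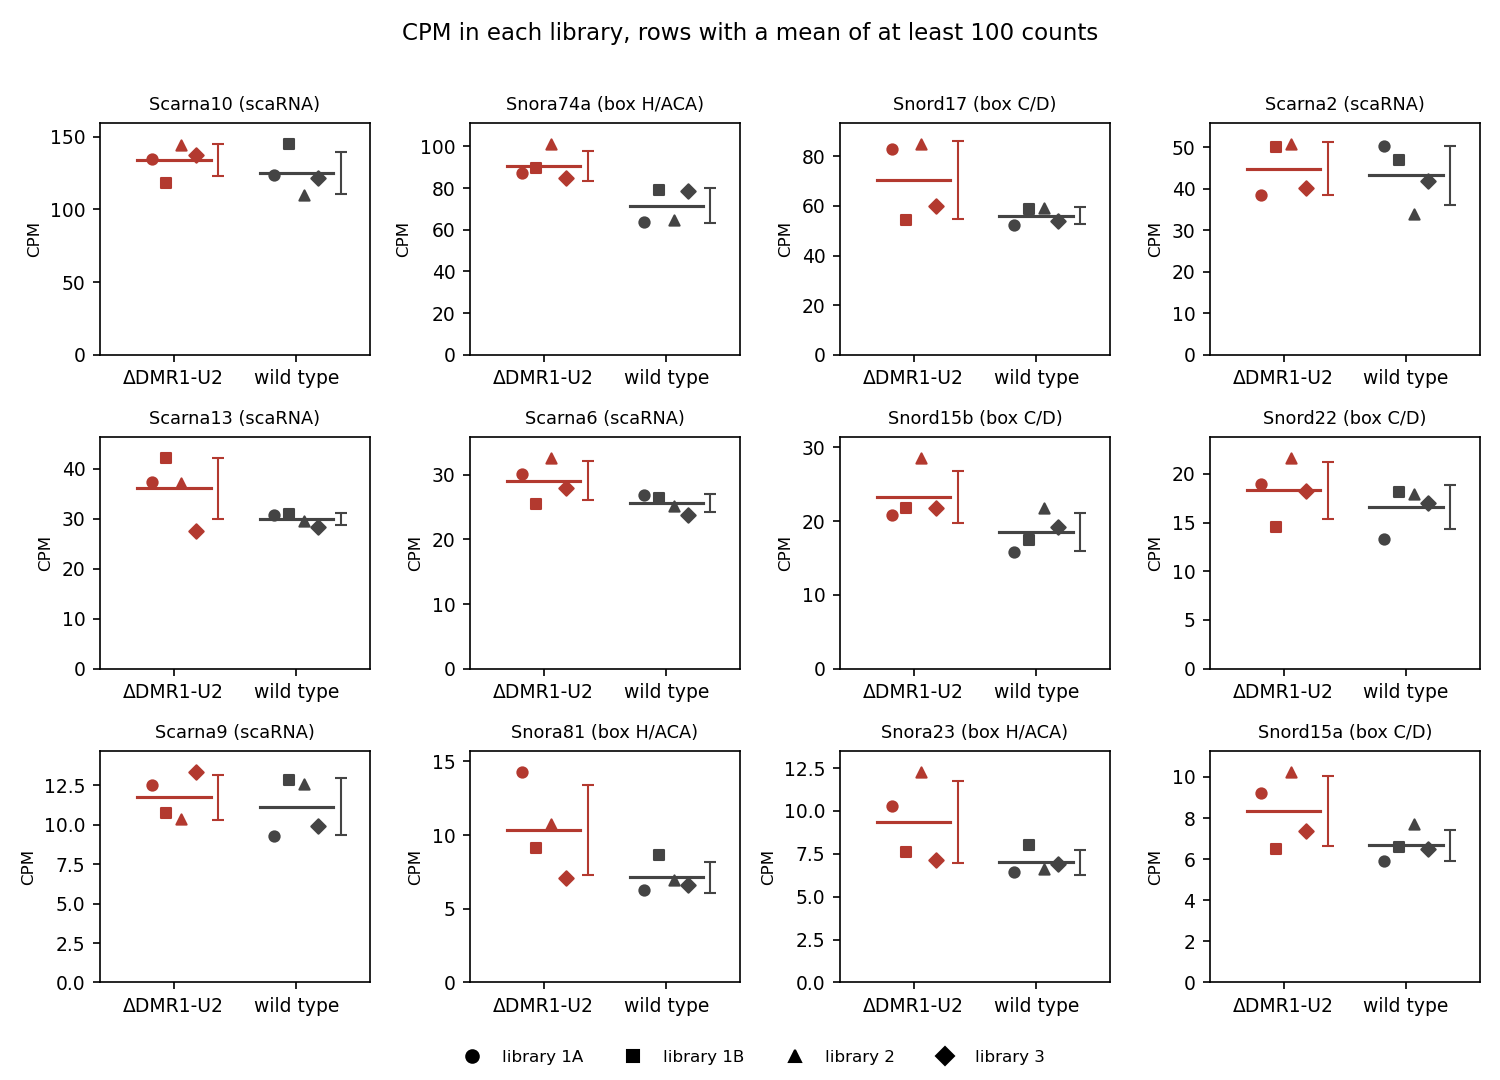
CPM in each of the 8 libraries for the 12 rows with a mean of at least 100 counts, from 0. Points are libraries, lines are group means and bars SD (n = 4), and equal symbols mark equal library names, which do not pair the samples. ΔDMR1-U2 library 2 is the highest point in 8 of the 12 panels and the groups are apart only for Snora74a.

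Abundant and rare rows are described separately. All 12 rows with a mean of at least 100 counts had a log2 fold change above 0, between 0.05 and 0.53, with a median of 0.29. Of the 59 other tested rows, 27 were above 0 and 32 below, with a median of -0.02. Among all 11511 genes tested at that level, 47.2% were above 0 and the median was -0.01. The 12 rows share the same 8 libraries, and the threshold was set after the values were seen, so this is a description.

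Single libraries stood out in these rows. ΔDMR1-U2 library 2 was the highest of the 8 in 8 of the 12 rows, and wild-type library 1A was the lowest in 8. Summed over the 12 rows, the level was 497, 450.0, 545 and 453 CPM in ΔDMR1-U2 and 405, 459, 396 and 414 CPM in wild type. Wild-type 1B lay above ΔDMR1-U2 1B and 3, so these sums overlapped. Without ΔDMR1-U2 library 2 the median was 0.20 and 11 of 12 rows stayed above 0, Scarna2 being the exception. Without ΔDMR1-U2 libraries 1A and 1B it was 0.28, with 12 of 12 above 0.

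The classes were also compared as sums. The summed box C/D level was 175, 132, 187 and 145 CPM in ΔDMR1-U2 and 130.0, 141, 145 and 134 CPM in wild type. The groups overlapped, and the means were 160 ± 25.5 and 137 ± 6.74 CPM (SD, n = 4 each). The summed box H/ACA level was 148, 136, 164 and 135 CPM in ΔDMR1-U2 and 113, 131, 117 and 126 CPM in wild type, without overlap. The means were 146 ± 13.5 and 122 ± 8.29 CPM.

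Each class sum rested largely on 1 row. Without Snord17 the box C/D means were 89.2 ± 10.3 and 81.3 ± 3.43 CPM. Without Snora74a the box H/ACA means were 55.0 ± 7.98 and 50.4 ± 2.43 CPM, the groups overlapped, and the log2 ratio of the means went from 0.26 to 0.13. The scaRNA sum was 257 ± 13.2 against 236 ± 21.6 CPM.

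**Figure D4:**
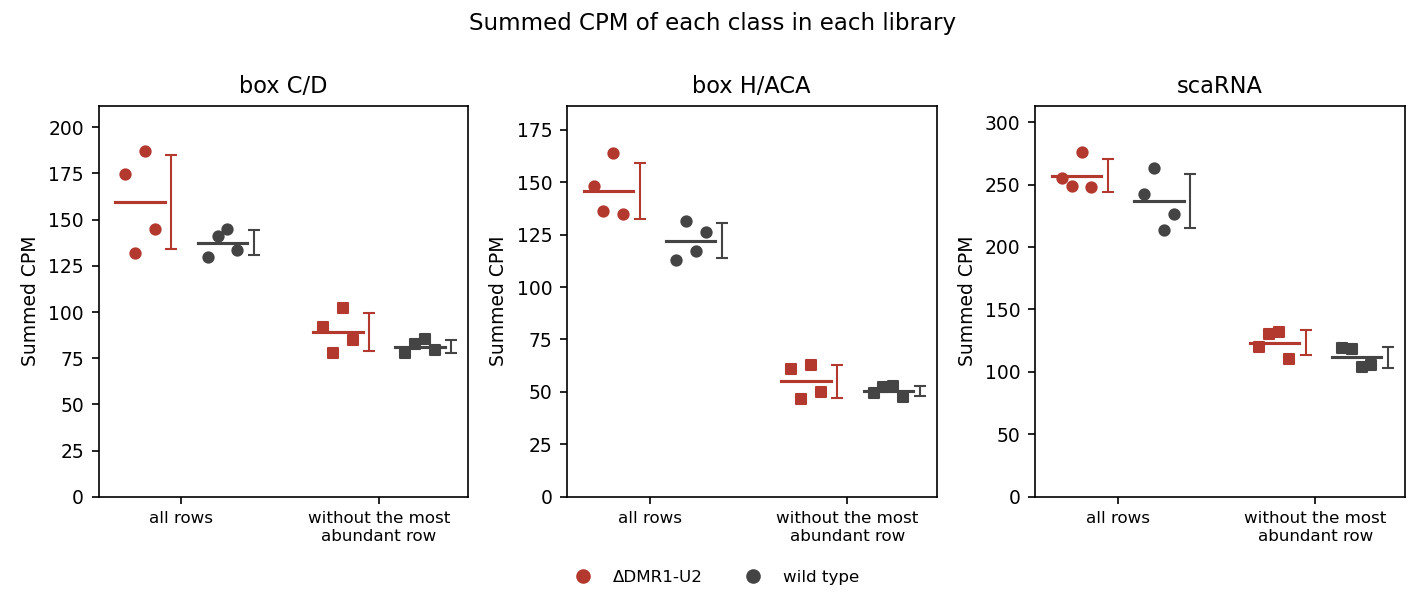
Summed CPM of each class in each library, from 0, for all rows (circles) and without the most abundant row of the class (squares); lines are group means and bars SD (n = 4). The groups are apart only for the box H/ACA sum of all rows, and meet once Snora74a is left out.

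Set against each other, the classes gave no difference larger than the spread. The box H/ACA sum divided by the box C/D sum was 0.849, 1.03, 0.875 and 0.929 in ΔDMR1-U2 and 0.870, 0.929, 0.811 and 0.945 in wild type. The means, 0.921 ± 0.0806 and 0.889 ± 0.0611, differed by less than the spread within either group.

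The genes that hold the members were looked at next, because a member inside a host is cut from the same precursor. Of 123 annotated members, 114 lay inside a host on the same strand, 54 of them overlapping an exon of some annotated transcript and 60 in introns only. Scarna2, Rnu11, Rnu12, Snord104 and Snord118 were among the 9 without a host. Reads of a member inside a host exon cannot be told apart from reads of the host.

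For 58 tested members the host was tested too, over 48 hosts. By edgeR 1 of the 48 hosts was called, where 1.13% of all genes were. It was the non-coding 2410006H16Rik, at 38.1 ± 6.10 CPM in ΔDMR1-U2, against 23.8 ± 2.66 CPM in wild type (log2 fold change 0.68 ± 0.12, edgeR adjusted p = 0.0329). Its tested member Snord49a had a log2 fold change of -0.08 ± 0.25. The levels of its other members, Snord49b and Snord65, were too low for the test.

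The ratio of member to host counts was compared in an exact two-sided permutation test for each of the 58 pairs. The smallest p was 0.0286, which is the smallest that 4 against 4 libraries can give, for 2 pairs, and after Benjamini-Hochberg adjustment over the 58 pairs the smallest was 0.552. Both pairs share the host Snhg12: Snora61 (log2 ratio lower by 0.81 in ΔDMR1-U2) and Snora16a (lower by 0.40). Both members overlap an exon of Snhg12, so reads of member and host are not separable in these ratios. Snhg12 itself was at 12.1 ± 2.14 CPM in ΔDMR1-U2, against 9.90 ± 0.101 CPM in wild type, a log2 fold change of 0.29 ± 0.12 with an edgeR adjusted p of 0.200. Its 4 tested members ran from -0.57 (Snora61) over -0.12 (Snora16a) and 0.12 (Snord99) to 0.18 (Snora44), and differences between them were not tested.

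For the abundant members, log2 fold changes of host and member can be set side by side. Snx5, the host of Snord17, had 0.03 ± 0.06, and Ipo7, the host of Snora23, had 0.02 ± 0.08. Eif4a2, the host of Snora81 and Snord2, had 0.23 ± 0.06, with 0.53 ± 0.19 and 0.23 ± 0.23 for its members. Rps3 had 0.15 ± 0.07 and Snhg1 0.27 ± 0.08, beside 0.14 ± 0.13 for Snord22. Ncapd2, the host of Scarna10, had -0.25 ± 0.09. Snhg10 had -0.19 ± 0.25, beside 0.27 ± 0.11 for Scarna13. Cep295 (5830418K08Rik in the table) had -0.14 ± 0.08, beside 0.07 ± 0.13 for Scarna9. Atg16l1 had 0.03 ± 0.07, beside 0.18 ± 0.09 for Scarna6. The annotated host of Snora74a had no row in the table, and Scarna2 had no host. Of the members named here, Snora74a, Snora81, Snord2, Snord15b, Snord22 and Scarna10 overlap an exon of their host. In all, 32 of 58 pairs had the same sign.

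**Figure D5:**
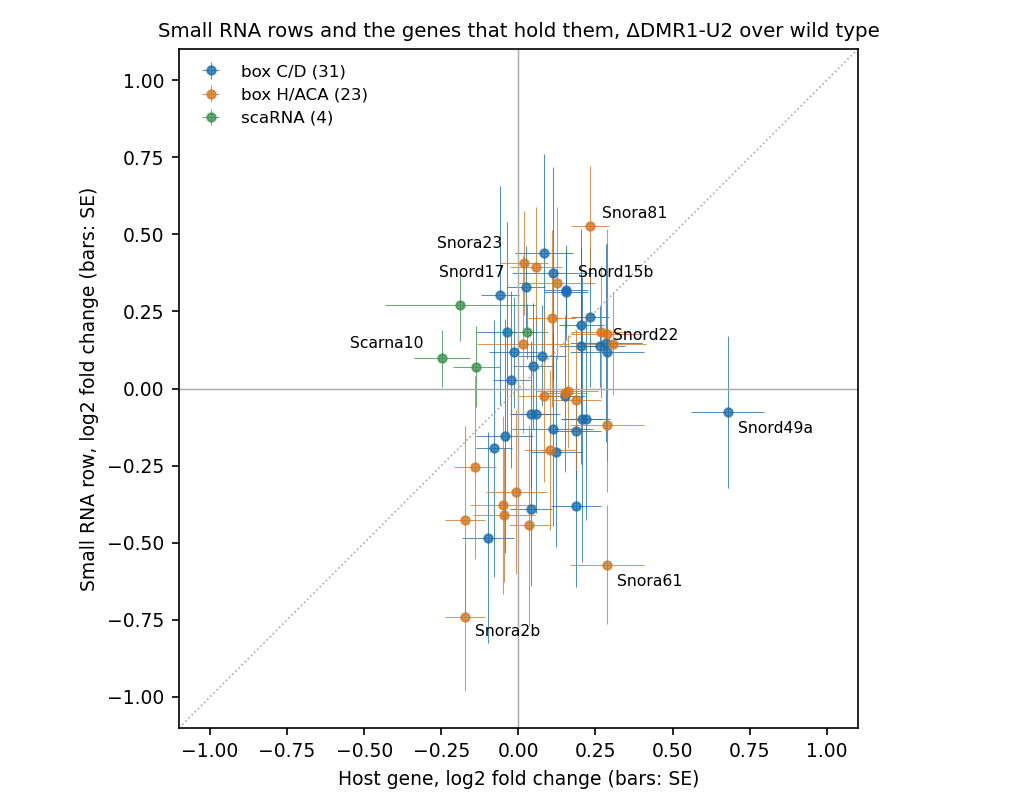
Log2 fold change of 58 member rows against that of their host genes, ΔDMR1-U2 over wild type, with standard errors as bars; the dotted line marks equal values. Hosts spread less than members, and Snord49a and Snora61 lie furthest below the line.

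The level of members from 1 host differed widely. Per kilobase, Snord15b (144 CPM) was above Snord15a (50.7) in Rps3, and Snord96a (44.6) above Snord95 (12.5) in Rack1. Snord15b overlaps an exon of Rps3 and Snord15a lies in an intron, while both Rack1 members overlap exons. In Rpl13a, a ribosomal protein gene with 4 members inside the annotated gene, Snord32a, Snord35a, Snord34 and Snord33 had 44, 28, 13 and 2 counts over all libraries. Of these only Snord33 overlaps an exon. How reads shared with a host exon were counted is not known, and their part in these levels was not tested. Snora2b and Snora34 share Kansl2 (2310037I24Rik in the table) and had log2 fold changes of -0.74 ± 0.24 and -0.42 ± 0.30, with -0.17 ± 0.06 for the host.

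The proteins that carry these RNAs were compared from lists of known factors. Of 5 core proteins of the box C/D particle, 0 were called by edgeR or DESeq2, and all 5 had a log2 fold change under 0, with a median of -0.20. At an unadjusted edgeR p under 0.05, 2 of the 5 were lower, where 10.9% of all genes were lower. The most abundant, Nop58, was at 61.5 ± 7.81 CPM in ΔDMR1-U2, against 63.1 ± 5.80 CPM in wild type. Fbl, which encodes fibrillarin and was named after its values were seen, was at 9.60 ± 0.447 and 11.7 ± 0.694 CPM, without overlap, and its edgeR adjusted p was 0.118. Of 4 core proteins of the box H/ACA particle, 0 were called by either tool and 0 had an unadjusted p under 0.05. Their median was -0.15, and Dkc1, which encodes dyskerin, was at 29.7 ± 3.91 and 32.3 ± 3.37 CPM.

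Assembly factors, Cajal body proteins and spliceosomal proteins gave few calls. By edgeR 0 of 11 snoRNP assembly factors, 0 of 10 Cajal body proteins, 0 of 15 Sm and Lsm proteins, 0 of 11 U1 and U2 snRNP proteins and 0 of 9 minor spliceosome proteins were called. At an unadjusted edgeR p under 0.05 the counts were 2, 1, 4, 1 and 1, all lower in ΔDMR1-U2 except the last. Of all genes tested, 10.9% were lower and 10.4% higher at that p, and 1.13% were called by edgeR and 6.44% by DESeq2. DESeq2 called 1 Cajal body protein gene, Gemin4, lower, and 1 minor spliceosome gene, Rnpc3, higher. Rnpc3, which binds U11 and U12, was at 37.9 ± 3.33 CPM in ΔDMR1-U2, against 30.9 ± 1.64 CPM in wild type, with an edgeR adjusted p of 0.0895. Of 15 Sm and Lsm genes, 14 lay under 0, with a median of -0.15. Of the 10 Cajal body protein genes, 9 lay under 0, with a median of -0.13. Their sums did not overlap, at 154 to 167 CPM in ΔDMR1-U2 against 168 to 178 CPM in wild type.

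Of 15 U3 and processome genes and 21 genes of Integrator and snRNA transcription, 0 were called by either tool, with medians of -0.01 and -0.00 and with 1 gene each at an unadjusted p under 0.05, Utp6 lower and Snapc3 higher. Non-coding snoRNA hosts lay mostly above 0. By either tool 0 of the 12 tested in this list were called, but 10 were above 0, with a median of 0.17. The list does not hold 2410006H16Rik, the non-coding host that edgeR called above. At an unadjusted edgeR p under 0.05, 5 were higher, where 10.4% of all genes were higher. These 5 were Gas5, Snhg1, Snhg5, Snhg6 and Snhg12, with log2 fold changes of 0.20 to 0.29. Rian, the most abundant host of the list, was at 4198 ± 346 and 4417 ± 148 CPM.

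Other structural RNAs, a list added after the files were seen, were compared as well. Rmrp and Rpph1, the RNA parts of the mitochondrial RNA processing and P ribonucleases, were at 4769 ± 753 and 5196 ± 573 CPM in ΔDMR1-U2 and at 4584 ± 751 and 4908 ± 654 CPM in wild type. Of the 5 tested, edgeR called 1, Rn4.5s, where it called 1.13% of all genes. Rn4.5s was at 4.57 ± 1.26 CPM in ΔDMR1-U2, against 8.56 ± 0.998 CPM in wild type (log2 fold change -0.91 ± 0.18, edgeR adjusted p = 0.0464). Terc and Vaultrc5 had log2 fold changes of -0.19 ± 0.21 and -0.06 ± 0.20.

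Among the cell type markers edgeR called 0 genes in any list, and only the Schwann cell sums of the groups did not overlap. All 10 skeletal muscle markers had a log2 fold change under 0, with a median of -0.17, and 0 were called by edgeR. At an unadjusted edgeR p under 0.05, 4 were lower, where 10.9% of all genes were lower. DESeq2 called Myh3 and Mylpf lower. The sum of 6 Schwann cell markers was 318 to 410 CPM in ΔDMR1-U2, against 222 to 305 CPM in wild type, and none was at 0 counts. All 6 had a log2 fold change above 0, 5 of them at an unadjusted edgeR p under 0.05, where 10.4% of all genes were higher. Of the 6, 0 were called by edgeR and 2 by DESeq2. The sum of 8 white adipocyte markers was 242 to 619 CPM against 184 to 256 CPM, with 0 of 7 tested called by either tool. All 7 had a log2 fold change above 0, with a median of 0.72. Cartilage and bone markers ran from 46.6 to 733 CPM in ΔDMR1-U2 and from 64.0 to 1379 CPM in wild type. The endothelial sum was 507 to 556 against 524 to 563 CPM. DESeq2 called the endothelial gene Cdh5 lower, while Tek and Cldn5 were higher at an unadjusted edgeR p under 0.05. Of the macrophage, red cell and epidermis markers 0 were called by either tool, and Emr1 and C1qa of macrophages were lower at that unadjusted p. The part of all these markers in the member values was not tested. In these bulk libraries, fewer cells of a type and less RNA per cell cannot be told apart.

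Precision differed widely between rows. The median standard error of the log2 fold change was 0.25 over the 71 members and 0.11 over all genes tested, and single members ranged from 0.09 to 0.46. For the median tested member, counting alone gives a coefficient of variation of 20.5% per library, next to 22.5% observed within groups. For Scarna10 counting gives 1.93% and the libraries of a group varied by 10.01%. For Snord17 the values were 2.76% and 17.9%. In these abundant rows the spread between libraries was larger than the counting error, and in the median row the values were close.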

How the data were processed

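Total RNA from 8 skeletal muscle samples was depleted of ribosomal RNA with Ribo-Zero and read as paired ends on Illumina HiSeq instruments, per the labels' protocols. The submitters' processing notes list build mm10, FastQC 0.10.1 for read quality, TopHat2 2.0.9 with Bowtie2 2.1.0, the counter HTSeq 0.5.4p3, and DESeq2 1.4.5. The annotation, settings and strand used in counting were not given in the sources used here. One table of 23336 genes was deposited, with a raw read count per gene and library, per the file headers. The same deposited table holds the authors' mean normalised signal, their fold ratio of wild type over ΔDMR1-U2 and its log2, and their p-value and adjusted p-value. These ratios run opposite to the direction used here, ΔDMR1-U2 over wild type.

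For the whole table, the deposited counts went into edgeR 4.0.16 (R 4.3.3) and its quasi-likelihood test, without covariates and with TMM scaling, a filterByExpr minimum count of 10 (15241 genes kept) and Benjamini-Hochberg adjustment over all of them at 0.05. The biological coefficient of variation was 12.3%. CPM are counts over the TMM-scaled library size, intervals are 95% intervals of the fit, and counting error and limits at a count of 0 cover counting only. The test was tried on simulated data first. DESeq2 1.42.0, other scalings and filters, a replicate block and leaving out libraries were the alternatives. Member to host ratios used raw counts with a pseudocount of 0.5 counts, and scipy 1.17.1. Positions, hosts and sequences come from GENCODE vM21 (GRCm38), which matched 123 members, and near-identical copies were found with blastn 2.17.0. RefSeq (GRCm38.p6) matched 122 members and was used for lengths only.

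The members and gene lists were chosen with earlier results of these data known. Classes follow the names, except Rnu73b, which the naming rule put in box H/ACA and its annotation in box C/D. Named members were the 5 rows of highest CPM in each class and the 3 rows of smallest p in each direction in box C/D and box H/ACA. Of each list the most abundant gene was named unless a gene was called, and other genes were named after their values were seen. Same-named libraries of the groups had correlations of -0.216 to -0.080, so the names were not used as pairs.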

Additional observations from a re-analysis of the deposited data

Results flagged for a closer look

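In 54 groups of 4 libraries, taken from the named members and the class sums, 2 had 1 library far from the other 3, where chance gives about 1 in 20. Snord15b was at 28.58 CPM in ΔDMR1-U2 library 2, while the other 3 libraries of that group lay between 20.84 and 21.82 CPM. Without that library its log2 fold change went from 0.32 to 0.21. Snord96a was at 4.592 CPM in wild-type library 1B, with the other 3 wild-type libraries between 3.439 and 3.59 CPM.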

How the results depend on the processing

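The number of members called was 0 under every edgeR setting, leaving out single libraries included (lowest and highest 0), and 1 under DESeq2, Snora74a, with a log2 fold change of 0.34. DESeq2 called 962 genes in all, against 172 by edgeR. The names did not pair the samples, and a replicate block gave 13 genes called and 0 members. Leaving out single libraries, the count over all genes ran from 7 to 631: it was 631 without ΔDMR1-U2 library 2 and 7 without library 3, and, on the wild-type side, 7 without 1A, 20 without 1B, 10 without 2 and 22 without 3. Without ΔDMR1-U2 1A and 1B together it was 16. The cause was not tested. The median log2 fold change of box H/ACA rows was -0.15 without ΔDMR1-U2 library 2 and ran up to 0.065 without 1B of that group, and was 0.094 without 1A and 1B. For box C/D rows it ran from 0.01 to 0.12. The log2 ratio of box H/ACA sums fell to 0.13 without Snora74a and ran from 0.20 to 0.29 without single libraries, and that of box C/D sums from 0.13 to 0.30. Of 23 named members, 17 kept the sign of their log2 fold change over 15 fits. The class given to Rnu73b moved no class value by more than the spread between libraries. Depth limits rows with few counts, where only large differences were detectable.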
